A study of Mus musculus with 12 samples.

Results

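The 8 genes described here encode the sensors and factors of the unfolded protein response: the sensors Ern1 (the kinase and RNase IRE1), Eif2ak3 (the kinase PERK) and Atf6, the transcription factors Xbp1, Atf4 and Ddit3 (CHOP), and the feedback genes Trib3 and Ppp1r15a (GADD34). They were chosen by their known role, with earlier results of these data known. On the array they are represented by 23 probe sets annotated to that gene alone, of 34945 probe sets with 1 gene symbol and 45037 probe sets that are not controls. RNA was taken from the prefrontal cortex of untreated C57BL/6J mice that were obtained at 10 weeks of age and kept under a cycle of 12 hours of light and 12 hours of dark. No genetic change or drug was involved, and sex is not given in the sources used here. 4 groups of 3 mice were killed at zeitgeber time (ZT, hours after lights on) 3 and 9, in the light, and 15 and 21, in the dark, and each mouse was hybridized to its own Affymetrix Mouse430_v2 array, so that a group holds 3 mice. In the dark phase brains were dissected under red light, so that the light at dissection and the phase of the day cannot be told apart. Values are log2 intensities after GCRMA, a normalization of the probe signals by the authors. A difference of 1 is a doubling of the intensity, and levels of different probe sets cannot be compared with each other.

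The unfolded protein response adjusts the folding capacity of the endoplasmic reticulum (ER) to its load. IRE1 splices the RNA of Xbp1 so that it encodes an active transcription factor, PERK phosphorylates the translation factor eIF2 and thereby favours translation of Atf4, and ATF6 is cut in the Golgi to release its own transcription factor. ATF6 and XBP1 are known activators of ER chaperones and of ER-associated degradation (ERAD), ATF4 and CHOP of amino acid supply, redox and cell death genes, and GADD34 directs a phosphatase to eIF2. Splicing, cleavage and phosphorylation are not seen in these values, which measure total RNA per probe set. In RNA of whole tissue, fewer cells of a type and less RNA per cell cannot be told apart.

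The RefSeq promoters (GRCm38.p6, 250 bases before the transcript start) are shown for Xbp1, whose RNA changed over the day, and for the 4 genes of its target list that both passed the test across the day and hold the ER stress response element (ERSE), the site through which ATF6 acts. Capitals mark the ERSE, all 5 genes lie on the plus strand, and in Creld2 the element is read on the opposite strand. In the window of Xbp1 no base is in capitals.
Xbp1 chr11:5520391-5520640: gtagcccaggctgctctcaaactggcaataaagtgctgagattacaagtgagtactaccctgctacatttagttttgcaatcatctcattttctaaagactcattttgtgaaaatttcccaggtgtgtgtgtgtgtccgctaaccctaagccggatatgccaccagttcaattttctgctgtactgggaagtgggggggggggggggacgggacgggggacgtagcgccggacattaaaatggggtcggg
Hspa5 chr2:34771840-34772089: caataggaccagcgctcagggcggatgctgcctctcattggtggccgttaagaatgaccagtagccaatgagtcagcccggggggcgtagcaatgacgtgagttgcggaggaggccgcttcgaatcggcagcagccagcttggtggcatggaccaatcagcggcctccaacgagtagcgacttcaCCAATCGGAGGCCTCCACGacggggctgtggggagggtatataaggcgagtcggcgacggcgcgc
Creld2 chr15:88819396-88819645: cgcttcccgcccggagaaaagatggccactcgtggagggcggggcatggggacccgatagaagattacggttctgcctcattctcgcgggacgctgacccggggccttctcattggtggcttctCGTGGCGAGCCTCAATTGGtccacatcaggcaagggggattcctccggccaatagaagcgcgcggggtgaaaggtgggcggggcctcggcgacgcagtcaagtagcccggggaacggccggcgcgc
Dnajc3 chr14:118937682-118937931: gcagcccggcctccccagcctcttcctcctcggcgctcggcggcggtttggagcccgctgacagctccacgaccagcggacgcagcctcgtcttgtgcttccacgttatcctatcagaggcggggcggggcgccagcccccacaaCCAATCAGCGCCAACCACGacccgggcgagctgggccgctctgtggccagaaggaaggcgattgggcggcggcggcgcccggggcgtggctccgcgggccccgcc
Pdia6 chr12:17266339-17266588: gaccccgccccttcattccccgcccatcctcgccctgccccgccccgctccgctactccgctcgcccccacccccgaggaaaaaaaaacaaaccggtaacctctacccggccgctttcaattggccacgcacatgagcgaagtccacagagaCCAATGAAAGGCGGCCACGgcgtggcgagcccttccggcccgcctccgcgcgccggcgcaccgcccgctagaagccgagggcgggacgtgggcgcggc

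The ERSE, CCAAT and CCACG with 9 free bases between them on either strand, was in 37 of 32851 promoter windows (0.113%). In addition, ERSE-II (ATTGG and CCACG with 1 free base between them, 0.0304% of windows), the ATF4 site CARE (TGATGNAAN, 3.44%), the CRE (TGACGTCA, 1.55%), the XBP1 site UPRE (TGACGTGG, 0.563%) and the E-box (CACGTG, 6.02%) were searched on both strands. The table of promoters holds windows for 7 of the 8 sensors and factors, all but Atf6. Of the 6 motifs, 1 match was found in these 7 windows, a CRE 12 to 5 bases before the start of Ppp1r15a. A match describes the letters of this window and does not show that a factor binds there.

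Of the 23 probe sets, 16 were among the 25000 brightest and were tested across the 4 time points with limma, at an adjusted p under 0.20. The counts of tested probe sets were 3 of 5 for Ern1, 1 of 3 for Eif2ak3, 3 of 3 for Atf6, 4 of 4 for Xbp1, 3 of 3 for Atf4, 1 of 2 for Ddit3, 1 of 1 for Ppp1r15a and 0 of 2 for Trib3. The other 7 were dim, with mean log2 intensities between 1.86 and 4.49, and their time-point means spanned at most 0.09. Their unadjusted p lay between 0.425 and 0.968.

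Across the day 3 of the 16 tested probe sets changed, and all 3 belong to Xbp1 (1.86% of all 25000 tested probe sets were called). Expression of Xbp1 was highest at ZT15, early in the dark phase, by about 0.7 to 0.9 log2 over its lowest time point, ZT9. Atf4 and Ddit3 also had their highest means at ZT15, in 2 of the 3 Atf4 probe sets, but did not pass the test, and the sensors did not pass it either. The adjusted p of the 12 tested probe sets of genes other than Xbp1 lay between 0.261 and 0.920, and 3 of these 12 had an unadjusted p under 0.05 (15.3% of all tested). The 12 had a median span between time points of 0.32 log2, against 0.27 over all tested probe sets. Thus a failure to pass at 3 mice per time point does not show that their levels were constant.

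Xbp1 (chromosome 11, 5520641 to 5525993 in GRCm38.p6) encodes the transcription factor downstream of IRE1. Its brightest probe set, 1437223_s_at, had log2 intensities of 11.23, 10.89 and 10.76 in the 3 mice at ZT3, 11.18, 10.91 and 10.76 at ZT9, 11.46, 11.56 and 11.89 at ZT15 and 11.01, 11.04 and 11.28 at ZT21. Every mouse at ZT15 lay above each of the other 9 mice, while the other 3 time points overlapped. The mean spanned 0.69 ± 0.16 log2 (SE) from ZT9 to ZT15, 1.61-fold, at an adjusted p of 0.190.

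The probe set 1420011_s_at gave the largest change among the 16. Its log2 intensities were 10.79, 10.61 and 10.43 at ZT3, 10.83, 10.51 and 10.40 at ZT9, 11.33, 11.44 and 11.66 at ZT15 and 10.83, 10.78 and 11.08 at ZT21. Again the 3 mice at ZT15 stood above the other 9 without overlap. From ZT9 to ZT15 the mean rose by 0.90 ± 0.14 log2 (SE), 1.86-fold, and the adjusted p over the 4 time points was 0.0698.

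For 1420886_a_at the log2 intensities were 10.36, 10.04 and 9.77 at ZT3, 10.09, 9.96 and 9.74 at ZT9, 10.68, 10.85 and 10.85 at ZT15 and 9.99, 10.06 and 10.42 at ZT21. Here too the ZT15 mice did not overlap with the rest, and the mean spanned 0.87 ± 0.16 log2 (SE), 1.82-fold (adjusted p = 0.138). A separation of all 3 ZT15 mice above the other 9 was seen for these 3 of the 16 probe sets and for 1.16% of all tested probe sets. The 3 probe sets target the same gene, and so do not count as 3 separate results. The suffixes _s_at and _a_at mark probes that may also match other transcripts, or several transcripts of the gene.

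The remaining Xbp1 probe set, 1420012_at, did not show the pattern. Its log2 intensities were 6.88, 6.91 and 6.93 at ZT3, 6.87, 6.61 and 6.92 at ZT9, 6.88, 6.92 and 6.99 at ZT15 and 7.10, 6.96 and 6.82 at ZT21, with overlap among all time points. Its span was 0.16 ± 0.10 log2 (SE, adjusted p = 0.671). The probe sets of Xbp1 therefore disagree, and the region of the transcript that each one covers was not analysed here.

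**Figure D1:**
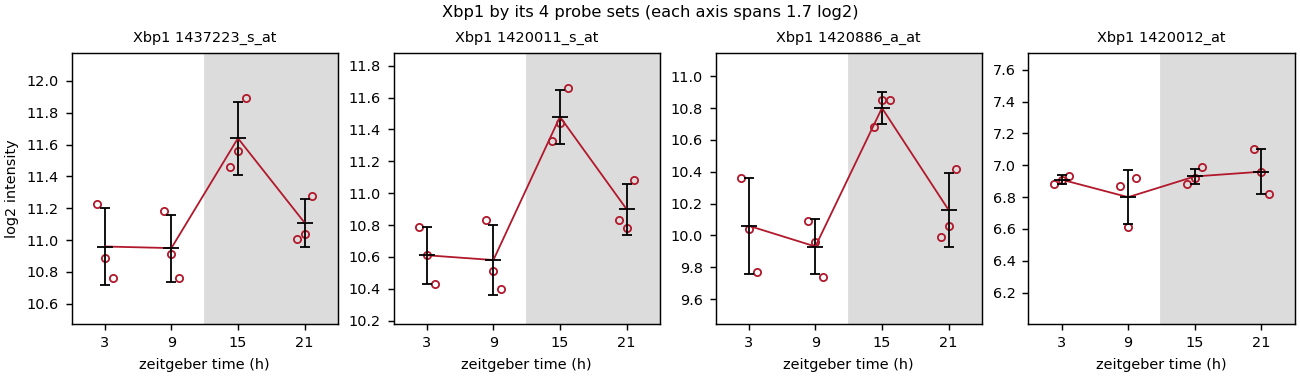
Log2 intensity (vertical axis) against zeitgeber time in hours for the 4 Xbp1 probe sets; circles are single mice (3 per time point), bars the mean ± SD, and grey marks the dark phase. In 3 panels the ZT15 mice lie above the other 9, and in the panel of 1420012_at all time points overlap.

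Pairs of time points place the change of Xbp1 between the light phase and ZT15. Against ZT3, 3 of 16 probe sets were higher at ZT15 (2.24% of all tested were called higher), the same 3 of Xbp1, by 0.87 ± 0.14 (1420011_s_at, adjusted p = 0.0397), 0.74 ± 0.16 (1420886_a_at, 0.0957) and 0.68 ± 0.16 log2 (1437223_s_at, 0.121; SE, n = 3 mice per time point). Against ZT9, the same 3 were again higher at ZT15 (0.452% of all tested were called higher), with adjusted p of 0.0452, 0.0798 and 0.185. At an unadjusted p under 0.05 there were 4 of 16 against ZT3 (12.5% of all tested) and 6 of 16 against ZT9 (7.14%). Both comparisons share the ZT15 mice. With the mean intensity of each array as a covariate, chosen after seeing the data, 1 and 5 of the 16 passed in these respective comparisons. Of all tested probe sets 142 and 651 were then called, against 629 and 145 without the covariate.

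From ZT15 to ZT21 the values of these 3 Xbp1 probe sets differed by -0.53, -0.58 and -0.64 log2, which did not pass the test (adjusted p = 0.371, 0.311 and 0.322). Of the 16 probe sets 0 were called in this comparison (0.124% of all tested were called lower and 0.08% higher), and 5 had an unadjusted p under 0.05, the 3 of Xbp1 and 2 of Atf6 (9.58% of all tested). Between ZT9 and ZT21 0 were called (0.032% higher, 0.004% lower) and 2 had an unadjusted p under 0.05, against 13.2% of all tested. In the 12-hour contrast, the mean of ZT3 and ZT15 minus the mean of ZT9 and ZT21, 0 were called (0.112% higher, 0.092% lower), while 5 had an unadjusted p under 0.05, against 10% of all tested.

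**Figure D2:**
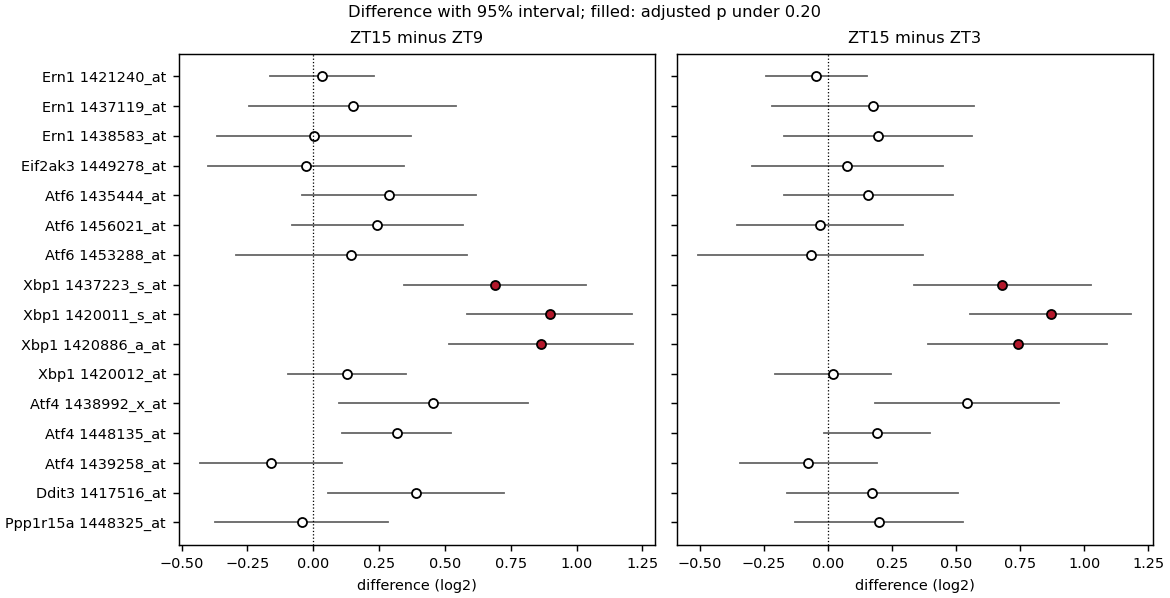
Difference in log2 intensity (horizontal axis) between ZT15 and ZT9 (left) and between ZT15 and ZT3 (right) for the 16 tested probe sets; points are estimates of the limma fit, lines 95% intervals, and filled points have an adjusted p under 0.20. The filled points are the same 3 Xbp1 probe sets in both panels, with differences of 0.69 to 0.90 against ZT9.

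The calls for Xbp1 changed with the array that was left out. When each of the 12 arrays was left out in turn, 1420011_s_at passed the test 10 times, with adjusted p between 0.0444 and 0.230, and missed it without replicate 2 of ZT3 or replicate 2 of ZT15. In the same 12 fits 1420886_a_at passed 5 times and 1437223_s_at 4 times. The span of 1420011_s_at was between 0.81 and 1.02 log2 in all 12 fits. It was 0.90 without replicate 2 of ZT3 and 0.92 without replicate 2 of ZT15. In these fits 40 and 106 of all tested probe sets were called, against 466 with all 12 arrays.

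ATF4, the transcription factor whose translation follows from PERK, was measured by 3 tested probe sets. The brightest, 1438992_x_at, had log2 intensities of 10.61, 10.45 and 10.42 at ZT3, 10.76, 10.71 and 10.26 at ZT9, 10.82, 10.87 and 11.40 at ZT15 and 10.99, 10.91 and 11.02 at ZT21. All 6 mice of the dark phase lay above all 6 of the light phase, with the smallest gap between 10.76 and 10.82, a separation seen in 1 of the 16 probe sets and in 0.468% of all tested. Neither of the other Atf4 probe sets showed this separation. Which other transcripts the probes of 1438992_x_at may match was not analysed here. The span of 1438992_x_at was 0.54 ± 0.16 log2 (SE) from ZT3 to ZT15 and did not pass the test (adjusted p = 0.261). With array mean intensity as a covariate its adjusted p was 0.165, in a fit that called 1345 of all tested probe sets, against 466 without the covariate.

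The Atf4 probe set 1448135_at had values of 10.29, 10.07 and 10.06 at ZT3, 9.96 to 10.07 at ZT9, 10.26, 10.35 and 10.38 at ZT15 and 10.10, 10.26 and 10.30 at ZT21. It was highest at ZT15 and lowest at ZT9, with overlap between ZT15 and both ZT3 and ZT21, and its span of 0.32 ± 0.09 log2 (SE) had an adjusted p of 0.308. The dimmer 1439258_at spanned 0.16 log2 with its lowest mean at ZT15 (adjusted p = 0.770).

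Ddit3, the gene of the factor CHOP, which is known for its part in cell death after lasting ER stress, had log2 intensities of 8.72, 8.28 and 8.62 at ZT3, 8.52, 8.45 and 8.01 at ZT9, 8.59, 8.78 and 8.78 at ZT15 and 8.53, 8.78 and 8.63 at ZT21. The time points overlapped, and the lowest mouse was at ZT9. Its span of 0.39 ± 0.15 log2 (SE) from ZT9 to ZT15 did not pass the test (adjusted p = 0.394).

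Among the sensors, Atf6 had the widest spans, in its probe sets 1435444_at and 1456021_at. Its brightest probe set, 1435444_at, had values of 9.36, 9.40 and 9.24 at ZT3, 8.95, 9.61 and 9.04 at ZT9, 9.51, 9.45 and 9.51 at ZT15 and 9.07, 8.90 and 9.19 at ZT21. The mice at ZT15 lay close together and above those of ZT3 and ZT21 (4 of the 16 probe sets, the others being of Xbp1, and 2.63% of all tested), whereas the mice at ZT9 overlapped with all of them, and the span of 0.43 ± 0.15 log2 (SE) had an adjusted p of 0.354. The second probe set, 1456021_at, was 7.08, 7.43 and 7.47 at ZT3, 6.79, 7.20 and 7.17 at ZT9, 7.49, 7.19 and 7.20 at ZT15 and 6.73, 6.81 and 7.005 at ZT21. Its mice at ZT21 lay below those at ZT3 and ZT15, and it spanned 0.48 ± 0.15 log2 (SE, adjusted p = 0.285). Both probe sets, and the third, 1453288_at (0.24 log2, adjusted p = 0.755), had their lowest mean at ZT21. In all 3 the mice at ZT21 lay below those at ZT3 and ZT15, as in 2.27% of all tested probe sets. In 1453288_at this was almost a tie, with the highest ZT21 mouse and the lowest ZT3 mouse both at 6.32.

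Ern1, the sensor that splices Xbp1 RNA, spanned 0.08 log2 in its brightest probe set 1421240_at, with all 12 mice between 7.28 and 7.60 (adjusted p = 0.884). The 2 others spanned 0.34 (1437119_at, adjusted p = 0.527) and 0.33 log2 (1438583_at, adjusted p = 0.477), and their highest means were at ZT21 and ZT15. The 3 probe sets of this gene thus differed in their time of highest value, and none passed the test.

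Eif2ak3, the sensor kinase PERK, had log2 intensities of 8.42, 8.30 and 8.34 at ZT3, 8.64, 8.61 and 8.11 at ZT9, 8.43, 8.21 and 8.64 at ZT15 and 8.31, 8.07 and 8.60 at ZT21. The 4 values from 8.60 to 8.64 came from 3 time points, and the means spanned 0.13 log2 (adjusted p = 0.920). These 4 arrays, replicates 1 and 2 of ZT9, 3 of ZT15 and 3 of ZT21, were also the 4 of highest mean intensity, 393 to 398, against 344 to 374 on the other 8. On all 4 arrays Eif2ak3 lay above the other 8, whose highest value was 8.43.

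Ppp1r15a, which returns eIF2 to its active state, showed the same split, at 6.88 to 7.15 on these 4 arrays and 6.44 to 6.73 on the other 8, and spanned 0.24 log2 between time points (adjusted p = 0.627). Of the 16 probe sets these 2 were separated in this way, as were 7% of all tested probe sets in this direction and 3.35% in the opposite one. The 3 changing Xbp1 probe sets overlapped between the 4 arrays and the other 8. With array mean intensity as a covariate, the same 3 Xbp1 probe sets passed with adjusted p of 0.0307, 0.0719 and 0.114, together with Atf4 1438992_x_at. The labels and methods name no scan time or batch, and what set these arrays apart was not tested.

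**Figure D3:**
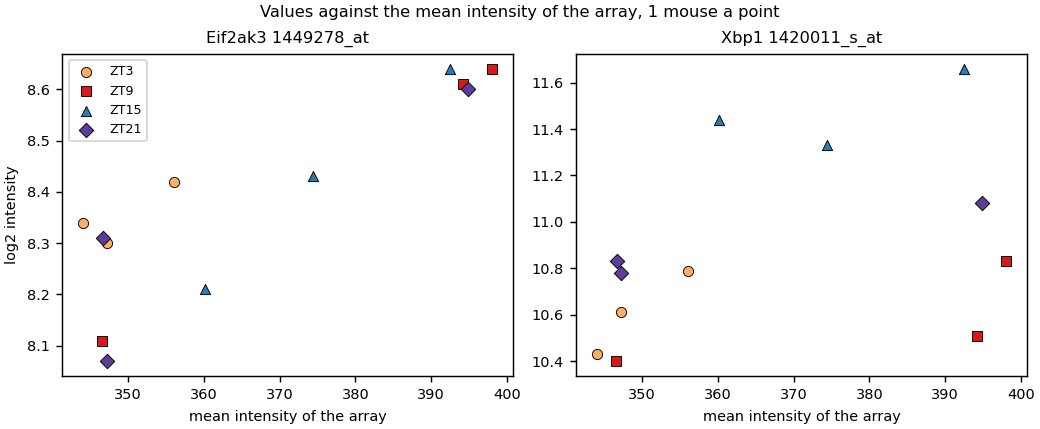
Log2 intensity (vertical axis) of Eif2ak3 (left) and of Xbp1 1420011_s_at (right) against the mean linear intensity of the array, with 1 point per mouse and symbols for the time points. Eif2ak3 is highest, 8.60 to 8.64, on the 4 arrays of mean intensity 393 to 398, while Xbp1 is highest on the 3 ZT15 arrays.

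**Figure D4:**
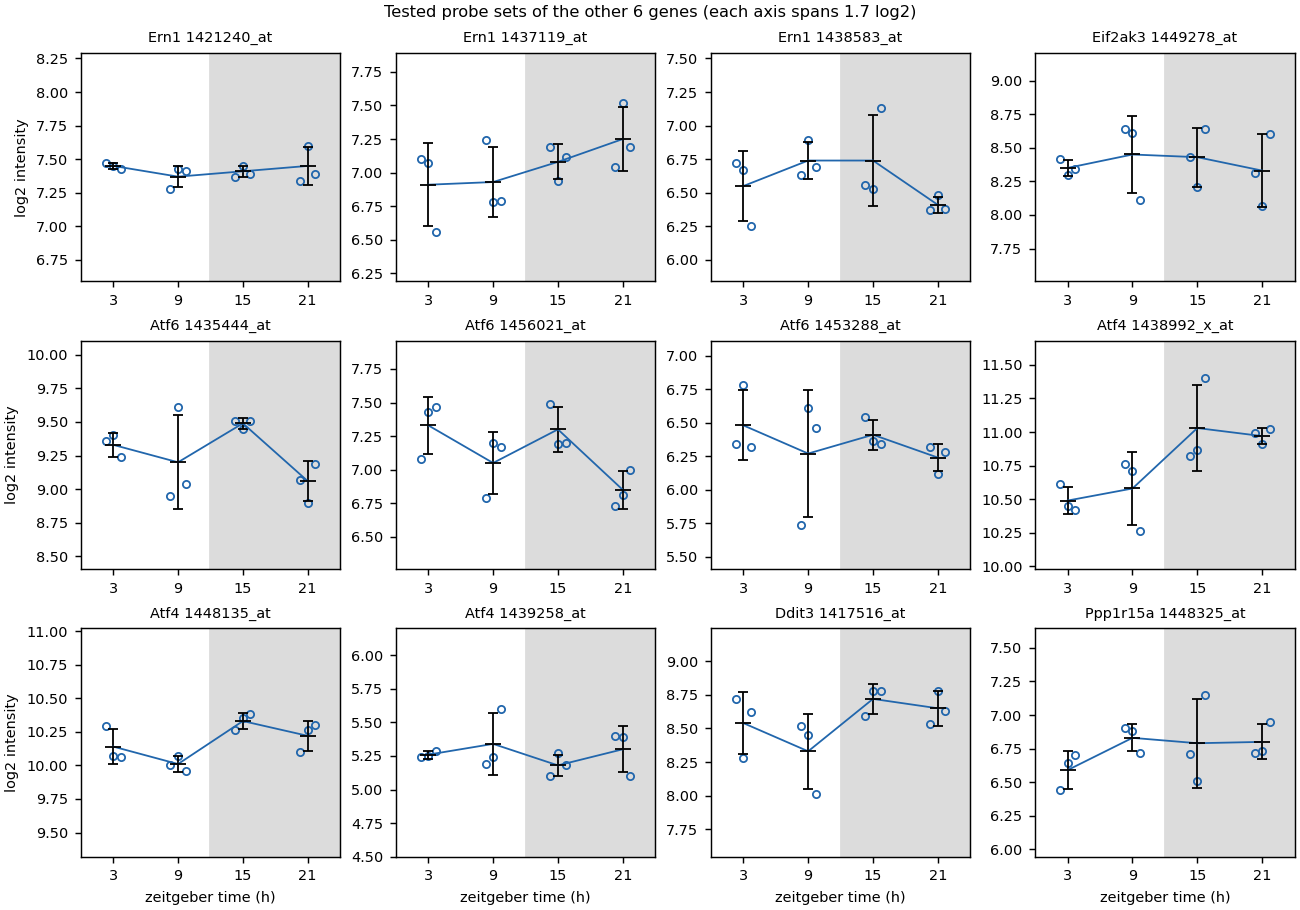
Log2 intensity against zeitgeber time in hours for the 12 tested probe sets of Ern1, Eif2ak3, Atf6, Atf4, Ddit3 and Ppp1r15a; circles are single mice (3 per time point), bars the mean ± SD, and grey marks the dark phase. The means span 0.08 to 0.54 log2, and these probe sets did not pass the test.

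Trib3, a feedback inhibitor of ATF4 and CHOP, was dim. Its 2 probe sets had mean log2 intensities of 4.49 (1426065_a_at) and 2.82 (1456225_x_at), under the dimmest tested probe set at 4.75, so no statement on its course over the day can be made.

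Within each mouse, the value of Xbp1 (1437223_s_at) was also set against the brightest probe set of each other gene, as a description with no test, since Xbp1 was taken for its change. From ZT3 to ZT15 Xbp1 changed by 0.73 log2 more than Ern1, 0.60 more than Eif2ak3, 0.52 more than Atf6, 0.51 more than Ddit3, 0.48 more than Ppp1r15a and 0.14 more than Atf4. In Xbp1 1437223_s_at by itself the ZT15 mice already lay above the other 9. This separation remained in the differences to Ern1, Eif2ak3 and Ddit3, whereas in those to Atf6, Atf4 and Ppp1r15a the mice overlapped.

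The genes whose values most resembled each sensor or factor over the 12 mice were also taken. The genes with the highest Pearson correlation to Xbp1 1437223_s_at were Dnajc3 (0.976), an ER co-chaperone that inhibits PERK, Myo9b (0.957) and Nxf1 (0.949), an export factor of mRNA. For Atf6 they were Erp44 (0.919), which retains proteins in the early secretory pathway, Csdc2 (0.911) and Ina (0.906), and for Atf4 they were Zfp651 (0.967), Yrdc (0.960) and Dexi (0.957). For Eif2ak3, Nap1l5 (0.969), Usp33 (0.949) and Pnisr (0.947) came first, for Ern1 Sh2d4a (0.896), Tmem120b (0.894) and Cst6 (0.880), for Ddit3 Cemip (0.920), Cox6a2 (0.912) and 2410004B18Rik (0.891), and for Ppp1r15a Pim3 (0.944), Dtx1 (0.940) and Cluh (0.939). These are the highest correlations among all tested genes over the same 12 arrays, which share time points and array intensity, and are a description.

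Known targets of the factors were read next, in lists drawn up with earlier results of these data known. The shares below are therefore a description. Of 27 tested ER chaperone and ERAD targets of ATF6 and XBP1, 1 probe set per gene, 7 changed across the day (25.9%, against 2.04% of 11936 tested genes), and all 7 had their highest mean at ZT15. In this list 17 of 27 genes were highest at ZT15, 63.0% against 23.5% of all tested genes. The median difference between ZT15 and ZT9 was 0.18 log2, against -0.02 over all tested genes. In 4 further genes, Ssr1, Herpud1, Sec61a1 and Sel1l, a probe set other than the brightest was called.

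Hspa5, the chaperone BiP that binds the sensors, was 11.47 ± 0.18 (SD, n = 3) at ZT9 and 12.54 ± 0.13 at ZT15, a difference of 1.07 log2 (adjusted p = 0.0121), and its lowest ZT15 mouse at 12.44 lay above the highest other mouse at 11.90. Creld2, an ER protein induced by stress, differed by 1.29 log2 between 7.02 ± 0.12 and 8.31 ± 0.30 (adjusted p = 0.0377). Pdia6, a disulfide isomerase, differed by 0.85 log2 (adjusted p = 0.0749) and Dnajb11, a co-chaperone of BiP, by 0.56 (adjusted p = 0.0934). Pdia6 and Dnajb11 had their lowest mean at ZT21. The adjusted p of these 4 genes are from the F-test over all time points, not from the difference between ZT15 and ZT9. In these 4 genes, in Manf and in Dnajc3 the ZT15 mice lay above all others, whereas in Sdf2l1 they overlapped. Of all tested probe sets 1.16% were separated in this way. These genes were taken because they passed the test, so their separation is not a further result.

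Of 28 tested targets of ATF4 and CHOP, 0 passed the test with limma by their brightest probe set, against 2.04% of all tested genes. At that share a count of 0 in a list of this size does not set it apart. An unadjusted p under 0.05 was found for 6 (21.4%, against 15.4% of all tested genes). Over all 59 tested probe sets of this list 1 was called (1.86% of all tested probe sets were), of Shmt2, a mitochondrial serine hydroxymethyltransferase. Their median difference between ZT15 and ZT9 was -0.01 log2, against -0.02 over all tested genes, and 5 were highest at ZT15 (17.9%, against 23.5%). The smallest p were those of the amino acid transporters Slc7a5 (span 0.47 log2, highest at ZT9, adjusted p = 0.257), Slc7a11 (0.41, highest at ZT3, 0.268) and Slc3a2 (0.33, highest at ZT9, 0.306) and of the transcription factor Cebpb (0.74, highest at ZT21, 0.299).

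Of 29 tested partners and regulators of the sensors and of eIF2, 0 passed with limma, against 2.04% of all tested genes. Of their 58 tested probe sets 0 passed, against 1.86% of all tested probe sets. These counts of 0 do not set the list apart. An unadjusted p under 0.05 was found for 6 genes (20.7%, against 15.4% of all tested genes). The median difference between ZT15 and ZT9 was 0.00 log2, and 9 were highest at ZT15 (31.0%, against 23.5%). The smallest p were those of Atf6b, a relative of ATF6 (0.60 log2, highest at ZT21, adjusted p = 0.257), Eif2ak4, the eIF2 kinase GCN2 (0.41, highest at ZT21, 0.262), Nfya, a subunit of the factor that binds CCAAT (0.39, highest at ZT3, 0.265), and Nck1, an adaptor (0.53, highest at ZT15, 0.280). The difference between the lists was not tested.

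**Figure D5:**
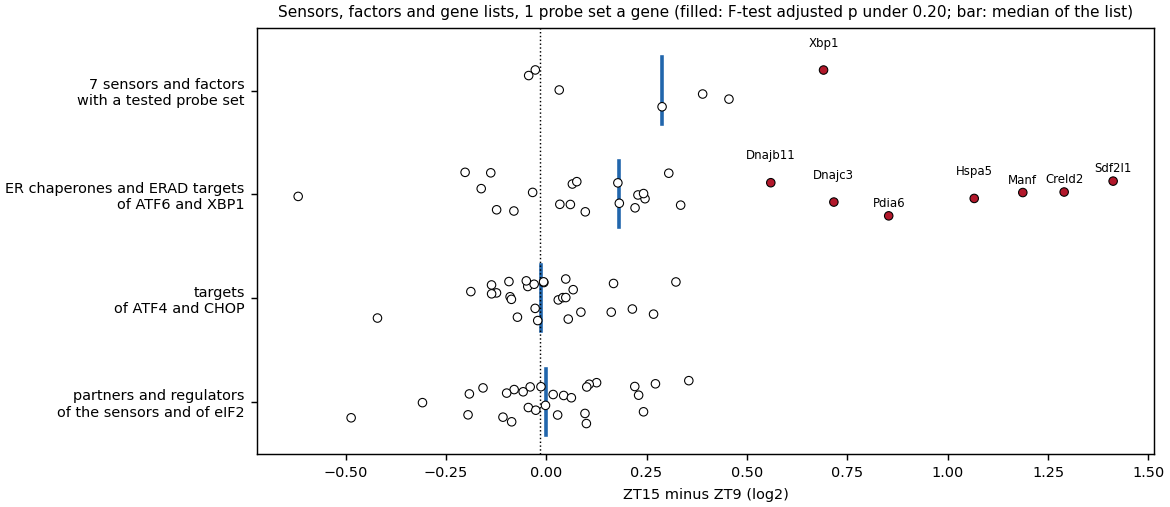
Difference between ZT15 and ZT9 in log2 intensity (horizontal axis), with 1 point per gene, for 7 sensors and factors with a tested probe set and for the genes of 3 lists; blue bars are medians, the dotted line is the median of all tested genes (-0.02), and filled points have an adjusted p under 0.20 over the 4 time points. The filled points of the lists are the 7 ER chaperone and ERAD targets from Dnajb11 (0.56) to Sdf2l1 (1.41).

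Of the 35 genes with an ERSE in the window, 12 were tested and 4 of them changed, the Hspa5, Creld2, Dnajc3 and Pdia6 shown above. These are 33.3% of the 12, against 2.04% of all tested genes. 8 of the 12 (66.7%, against 23.5%) had their highest mean at ZT15, and the median difference between ZT15 and ZT9 was 0.23 log2, against -0.02. The lists hold 8 of the 12, Calr, Canx, Hsp90b1 and Syvn1 being the others. Outside the lists 0 of 4 passed the test with limma, with a median difference of 0.09.

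Markers of other cell types were read beside these results. All 10 neuronal and all 10 astrocyte markers of the lists were tested, and array means of their deviations lay within -0.17 to 0.20 and -0.22 to 0.17 log2. Choroid plexus markers were high on replicate 3 of ZT9 (mean deviation 2.28 log2 over 4 tested of 10 listed) and replicate 1 of ZT15 (0.95), against -0.64 to -0.01 on the other arrays. Their summed intensity ran from 824 to 2171 at ZT3, from 1960 to 29640 at ZT9, from 2416 to 18930 at ZT15 and from 1667 to 5602 at ZT21. At ZT15 the mean of the marker Ttr was 12.16, against 11.39 over all arrays. The other tested markers differed less, Clic6 at 7.29 against 7.20, Kcnj13 at 5.68 against 5.77 and Sostdc1 at 4.80 against 4.97. Xbp1 1420011_s_at had the lowest value of its time point on replicate 3 of ZT9 and replicate 1 of ZT15, 10.40 and 11.33. Without both arrays, a choice made after seeing the data, 1 of the 16 probe sets passed, 1420011_s_at, with a span of 0.94 log2 (adjusted p = 0.147).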

How the data were processed

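The deposited table holds intensities: the authors hybridized RNA of single mice to Affymetrix Mouse430_v2 arrays and extracted GCRMA values per probe set, on a linear scale, and 64 control probe sets were left out here. The authors filtered by MAS5 detection calls, which were not used here. Instead, the 25000 brightest by mean over all arrays were tested on the log2 scale, with a floor of 1 that no value reached from below. Models were fitted in R 4.3.3 using lmFit and eBayes of limma 3.58.1 (F-test over the 4 time points and two-sided contrasts), adjusted by Benjamini and Hochberg over all 25000, at 0.20. The number of arrays limits the precision. The calculations were tested on simulated data. Probe sets were named from the platform annotation: 34945 had 1 symbol and 932 several, and 34741 of the former were matched to the reference. In the lists each gene was represented by its brightest probe set. Replicates are separate mice by the methods of the study. The same 3 Xbp1 probe sets, and 1092 of all tested (4.37%), passed at q under 0.20 with the multiclass SAM statistic of the study's methods (100 permutations).

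The genes and lists were chosen with earlier results of these data known. Named are all 8 genes, up to 4 genes of each list with the smallest p, and the 3 genes most correlated with each; others were chosen after their values were seen. Marker lists covered neurons, astrocytes, oligodendrocytes, microglia, endothelium, choroid plexus, striatum and blood, of which 1 neuronal and 1 endothelial marker passed the F-test. Alternatives were quantile normalization, median centring, array weights, a trend of the variance with intensity, a stricter filter (15000) or none, no moderation, other thresholds, the replicate number as a block and each array left out; 2 more, array intensity as a covariate and leaving out both arrays high in choroid plexus markers, were added after seeing the data. Python 3.11.15, pandas 2.3.3, numpy 2.4.6, scipy 1.17.1 and matplotlib 3.10.9 were used for tables and plots.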

Additional observations from a re-analysis of the deposited data

How the results depend on the processing

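Median centring, an intensity trend with a robust prior and the 15000 brightest probe sets left each count of the 16 probe sets within 1.5 times its value. The number passing over the 4 time points, 3, was 0 at an adjusted p of 0.05, 1 at 0.10, 9 with array weights (which called 14822 of all 25000), 1 with no filter, 0 with no moderation, 5 with quantile normalization and 1 without both arrays high in choroid plexus markers. ZT15 minus ZT3, 3, became 1 at 0.05, 1 with array mean intensity as a covariate, 5 with array weights and 1 with no moderation. ZT15 minus ZT9, 3, became 1 at 0.05, 5 with the covariate, 1 without both arrays and 1 with no moderation. ZT21 minus ZT9, 0, became 2 with the covariate, 6 with array weights and 3 with quantile normalization. ZT21 minus ZT15, 0, became 2, 5 and 2 under these, and the 12-hour contrast, 0, became 2, 4 and 2. The totals over all tested probe sets also moved. Over the 4 time points 466 were called in the main fit, 25 at 0.05 and 84 at 0.10. With no filter 194 were called, with no moderation 79, with quantile normalization 2092 and without both arrays 397. ZT21 minus ZT9 called 9 in the main fit, 1087 with the covariate, 9517 with array weights and 1072 with quantile normalization. The cause of these shifts was not tested.

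Of the ER chaperone and ERAD targets, 7, the count was 2 at 0.05, 4 at 0.10, 23 with array weights and 3 with no moderation. Of the ATF4 and CHOP targets, 0, it was 1 with the 15000 brightest, 21 with array weights, 1 without both arrays and 2 with quantile normalization. Of the partners, 0, it was 4 with the 15000 brightest, 1 with the covariate, 13 with array weights and 3 with quantile normalization. In the main fit 466 of all tested probe sets were called. The totals were 1330 with the 15000 brightest, 1345 with the covariate and 2092 with quantile normalization.

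With each array left out in turn, the count over the 4 time points lay between 0 (without replicate 2 of ZT3 or of ZT15) and 5 (without replicate 1 of ZT9), that of ZT15 minus ZT3 between 0 (without replicate 2 or 3 of ZT3) and 4, ZT15 minus ZT9 between 1 (without replicate 2 or 3 of ZT15) and 3, ZT21 minus ZT9 between 0 and 2 (without replicate 1 of ZT9), ZT21 minus ZT15 between 0 and 5 (without replicate 3 of ZT21) and the 12-hour contrast between 0 and 1. The ER chaperone list lay between 2 and 11, the ATF4 and CHOP targets between 0 and 5 and the partners between 0 and 5.

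The replicate numbers were not taken to pair the mice. Of 18 same-numbered pairs, 6 had deviations correlated above 0.1 (-0.50 to 0.48). The median was -0.09 for same-numbered and 0.06 for differently numbered arrays. Whether some arrays shared a batch was not tested. With the replicate number as a block (replicate block), 1 of the 16 probe sets passed over the 4 time points, 1 in ZT15 minus ZT9, and 3 genes of the ER chaperone list. Of the results for single probe sets, 305 kept their side of the threshold under an alternative, 27 lost and 13 gained a call. All 27 lost calls were of the 3 Xbp1 probe sets called in the main fit, the only ones that could lose one. Most of the 305 are of probe sets that were not called, so this number does not measure how stable the Xbp1 calls were.

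With 3 mice per time point, changes larger than the spread between mice can also fail to be called. Atf4 1448135_at spanned 0.32 log2 with SDs of 0.06 to 0.13 and did not pass the F-test (adjusted p = 0.308). The smallest change that can be called was not computed, and 7 of 23 probe sets were too dim to test.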
